A study of Mus musculus with 12 samples.

Results

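A set of 10 transcription regulators of cortical progenitors was followed across both experiments: Pax6, Emx1, Emx2, Lhx2, Sox1, Sox2, Sox3, Sox9, Gli3 and Hmga2. They were represented by all probe sets that the platform annotation ties to a single gene symbol among these 10, which gave 21 of the 45037 probe sets and 10 of the 17097 genes with such a probe set. Pax6 had 5 probe sets, Hmga2 4, Sox9 3, Emx1 and Gli3 2 each, and the other 5 genes 1 each. RNA of embryonic mouse brain on a mixed genetic background was hybridised to 12 arrays, 3 in each of 4 groups.

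YAP overexpression embryos carried TetO-YAP1, a doxycycline-dependent allele of the mutated YAP1-S127A, together with Nes-rtTA, in which the Nestin promoter of neural progenitors drives the transactivator. YAP control embryos carried Nes-rtTA without the YAP1 allele. Forebrain with midbrain of both groups was dissected at E11.5, and the series gives doxycycline in the dam's food at 200 mg/kg from E7.5. Nf2 knockout embryos were Nf2F/F;Emx1-Cre and Nf2 control embryos Nf2F/+;Emx1-Cre, with dorsal telencephalon taken at E13.5. The Nf2 controls, described as lacking 1 allele of Nf2, still carry an intact one where the Cre is active, in the telencephalon, and both Nf2 groups carried Emx1-Cre, which is named for a member of the set. The labels do not say whether the Cre allele alters Emx1.

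The Hippo kinases restrain YAP, which switches on target genes together with DNA-binding partners, and Nf2 encodes Merlin, which acts upstream of those kinases. Dorsal telencephalic progenitors are defined by a small group of factors. Lhx2, Emx1, Emx2 and Pax6 are homeobox genes that pattern the cortical field, Lhx2 by setting cortical against hem fate and Emx2 and Pax6 in opposing gradients along the cortical sheet. Sox1, Sox2 and Sox3 are the SoxB1 group, which holds neural progenitors undifferentiated, while Sox9 belongs to the SoxE group and acts in neural stem cells and later in glia. Gli3 acts mainly as a repressor of Hedgehog targets and is required for dorsal telencephalic identity. Hmga2 is a chromatin-binding protein of young neural stem cells, whose level declines as development proceeds and is limited by let-7 microRNAs.

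Emx2, Lhx2 and Pax6, 3 of the 5 genes that fell with YAP overexpression, are shown by the 250 bases before an annotated transcription start, from RefSeq on GRCm38.p6, at the more upstream start where a gene had several. Capitals mark CCAAT on either strand.
Emx2, chr19:59458440-59458689, + strand: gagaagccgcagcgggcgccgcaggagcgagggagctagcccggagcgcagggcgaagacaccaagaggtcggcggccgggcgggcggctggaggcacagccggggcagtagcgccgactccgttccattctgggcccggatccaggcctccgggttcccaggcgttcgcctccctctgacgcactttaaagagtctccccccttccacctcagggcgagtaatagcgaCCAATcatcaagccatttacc
Lhx2, chr2:38339031-38339280, + strand: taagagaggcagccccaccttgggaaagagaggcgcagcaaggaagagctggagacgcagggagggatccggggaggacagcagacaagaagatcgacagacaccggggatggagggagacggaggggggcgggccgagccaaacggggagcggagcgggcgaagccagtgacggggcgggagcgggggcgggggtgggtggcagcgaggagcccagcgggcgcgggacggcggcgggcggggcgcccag
Pax6, chr2:105668646-105668895, + strand: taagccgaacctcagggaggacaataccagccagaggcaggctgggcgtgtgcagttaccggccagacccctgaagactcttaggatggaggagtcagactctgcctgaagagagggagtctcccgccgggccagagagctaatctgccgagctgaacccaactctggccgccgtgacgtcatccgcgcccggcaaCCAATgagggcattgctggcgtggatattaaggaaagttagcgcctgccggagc
The table of starts held 10 windows for 8 of the 10 genes. None of the 10 contained GGAATG, the core motif of the TEAD partners of YAP, or its reverse complement, against 12.64% of all 32851 windows of this length. CCAAT, searched on both strands in the same way, lay in 4 of the 10 windows and in 33.85% of all windows. It started 21 bases before the start in Emx2 and 54 bases before it in Pax6, and the Lhx2 window had none. The windows of Sox1 and Sox2, which are not among those 5 genes, also held it, 237 and 46 bases before the start. A match or its absence describes only these letters in these windows.

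Values are on the log2 intensity scale throughout. The median probe set of an array lay between 5.03 and 5.1 for YAP arrays and between 4.3 and 4.42 for Nf2 arrays, so a level is not comparable across the experiments, and each value is set only against the controls of its own experiment. A probe set counts as called where limma's p, adjusted over all 45037 probe sets, was under 0.05, and only called probe sets are described as rising or falling. With YAP overexpression 1704 probe sets were called, 3.78% of those tested and 39.1% of them higher, a share that became 49.2% when each array was centred on its median. In the Nf2 comparison 60 were called, which is 0.133%. The brightest Yap1 probe set read 11.35, 11.23 and 11.33 in YAP overexpression arrays, against 11.07, 10.99 and 11.05 in YAP control arrays, and was not called (0.27, SE 0.08, adjusted p = 0.0957). The sources used here do not say if these probes detect the transgene. The brightest Nf2 probe set read 8.06, 8.27 and 8.11 in Nf2 knockout arrays, against 8.41, 8.66 and 8.51 in Nf2 control arrays, and was not called either (-0.38, SE 0.10, adjusted p = 0.393). The probes may lie outside the deleted part of Nf2. Labels number the arrays of a group without saying that they came from separate embryos, so the p-values reflect only how much these samples vary, and part of that may be technical.

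YAP overexpression against its control gives the response of these regulators to excess YAP. Of the 21 member probe sets, 7 fell, none rose and 14 were not called, and the 7 belonged to 5 genes: Lhx2, Emx2, Emx1, Pax6 and Sox9. Lower calls made up 2.3% and higher calls 1.48% of all probe sets tested. Dim probe sets are part of that background. With dim probe sets left out, 1335 of 24135 were called lower and 872 higher. That fit kept 17 member probe sets, with the same 7 called lower. The falls were moderate, between 1.27-fold and 1.61-fold. The median change of the 21 probe sets was -0.06, beside -0.01 over all probe sets. The 14 uncalled probe sets ran from -0.47 to 0.40. The groups did not overlap in 12 of the 21 probe sets, and in 18.2% of all probe sets, and 8 of the 12 were lower with overexpression, as were 10.3% of all. At an unadjusted p under 0.05 there were 10 of the 21, and 15.7% of all probe sets.

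Lhx2, a LIM homeodomain factor, was measured by 1 bright probe set. It read 11.14, 11.13 and 11 in YAP overexpression arrays, against 11.82, 11.62 and 11.89 in YAP control arrays. Every overexpression array lay below every control array, with a gap larger than the spread inside either group. The difference was -0.69 (SE 0.09), a 1.61-fold fall with 3 arrays against 3 (adjusted p = 0.000943 in limma). In all 21 alternative settings, each array left out in turn included, Lhx2 was called lower, with changes from -0.77 to -0.63.

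Emx2, a homeobox gene of medial and caudal cortex, showed nearly the same size of fall on its single probe set. The values were 9.07, 9.18 and 9.28 in YAP overexpression arrays and 9.88, 9.69 and 9.99 in YAP control arrays, without overlap. The difference was -0.68 (SE 0.10), or 1.6-fold (adjusted p = 0.00308 in limma). Emx2 too was called lower in all 21 settings, from -0.76 to -0.61.

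Emx1, the other member of the Emx pair, lay close to the array median at E11.5. Its brighter probe set read 4.79, 4.88 and 5.0 in YAP overexpression arrays, against 5.46, 5.19 and 5.76 in YAP control arrays. The groups did not overlap, and the controls spread more widely than the overexpression arrays (SD 0.29 against 0.11). The difference was -0.58 (SE 0.13, adjusted p = 0.0233 in limma). The second Emx1 probe set, dimmer than the array median, differed by -0.27 (SE 0.13, adjusted p = 0.373), with overlapping groups. The call on the brighter one was lost without overexpression replicate 1 (adjusted p = 0.0859), control replicate 1 (adjusted p = 0.0683) or control replicate 3 (adjusted p = 0.0837). It was also lost with only the 6 YAP arrays (adjusted p = 0.102 in limma).

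Pax6, a paired and homeodomain factor of cortical and eye progenitors, fell on its 2 brightest probe sets. The brightest read 10.46, 10.43 and 10.43 in YAP overexpression arrays and 10.87, 10.65 and 10.83 in YAP control arrays. The overexpression arrays lay within 0.03 of each other and below every control. This was a difference of -0.34 (SE 0.08), or 1.27-fold (adjusted p = 0.0244 in limma). The next probe set read 7.99, 8.01 and 7.95 in YAP overexpression arrays, against 8.40, 8.28 and 8.82 in YAP control arrays, also without overlap, and differed by -0.52 (SE 0.13, adjusted p = 0.0415). The remaining 3 probe sets of Pax6, with control means between 4.44 and 5.49, differed by -0.47 (adjusted p = 0.0893), -0.04 (adjusted p = 0.918) and 0.05 (adjusted p = 0.92). The brightest lost its call without overexpression replicate 1 (adjusted p = 0.0605), overexpression replicate 3 (0.0717), control replicate 1 (0.0963) or control replicate 3 (0.0982), and with each array centred on its median (0.0525). The second lost it without overexpression replicate 1 (0.101), 2 (0.0712) or 3 (0.122), without control replicate 1 (0.0716) or 3 (0.128), without 5 of the 6 Nf2 arrays (0.051 to 0.0608), and with centring (0.0561). With only the 6 YAP arrays neither was called (adjusted p = 0.13 and 0.126 in limma), and with array weights the second was not (0.0748).

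Within the YAP controls the same array was lowest for all 4 of these homeobox genes. That array was also lowest for the uncalled Sox2 and Gli3, so this was not particular to genes that fell. Control replicate 2 gave the lowest value on the brightest probe set of Lhx2, Emx2, Emx1 and Pax6, and the range among controls was 0.22 for Pax6, 0.27 for Lhx2, 0.3 for Emx2 and 0.57 for Emx1. No such single array was lowest among the overexpression arrays.

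**Figure D1:**
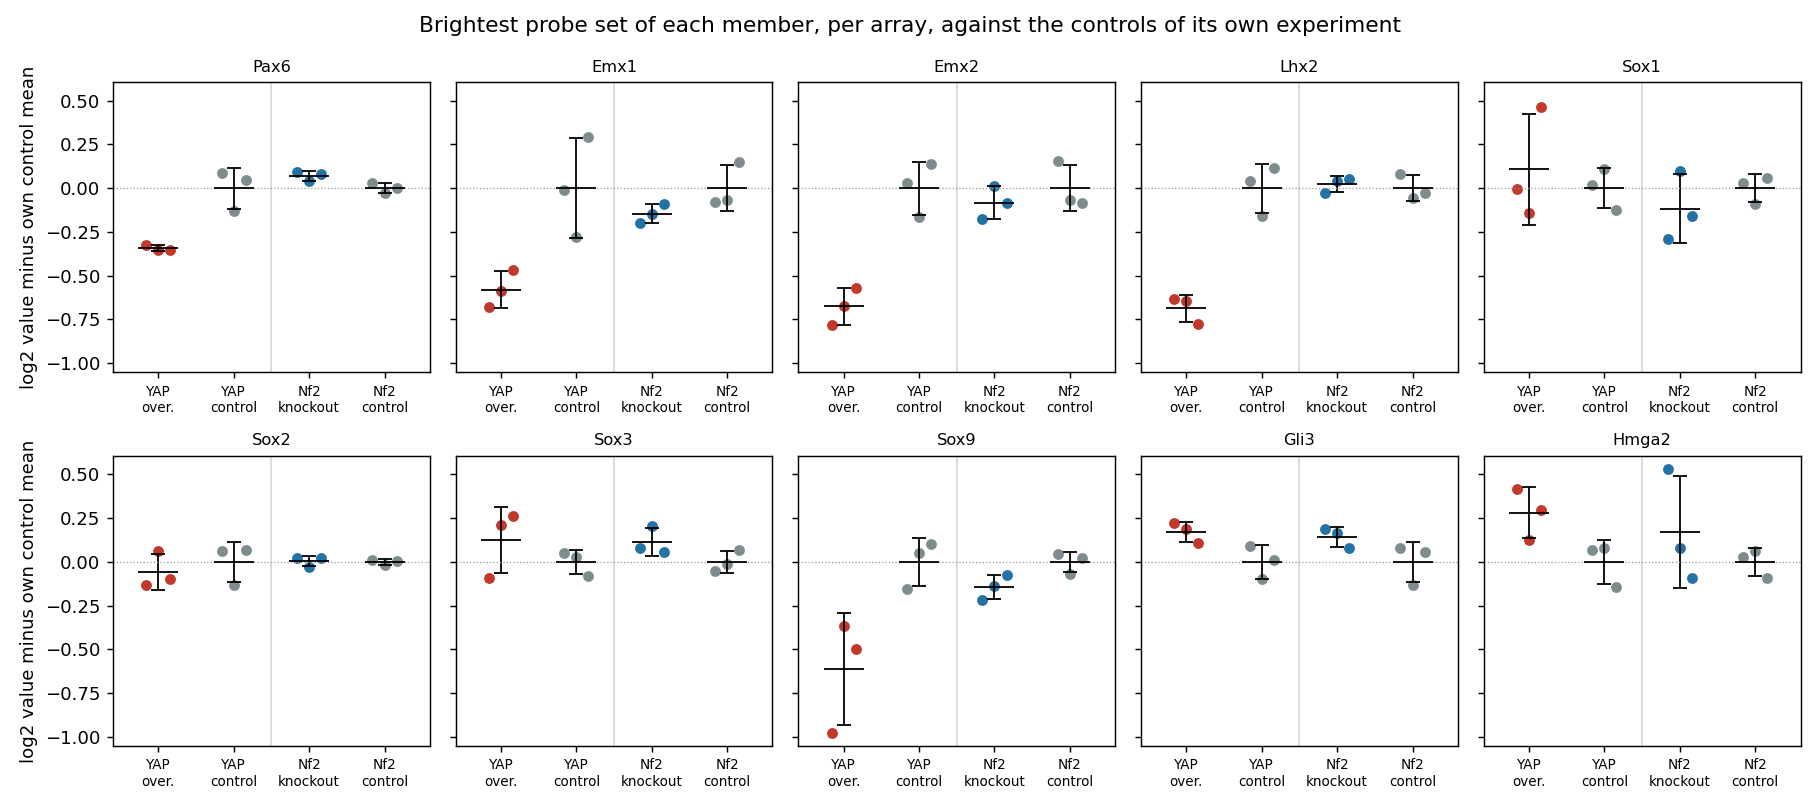
Each point is 1 array, plotted as its log2 value minus the mean of the 3 controls of the same experiment, for the brightest probe set of each of the 10 genes. Red points are YAP overexpression, blue points Nf2 knockout and grey points the controls, and bars give the mean and SD (n = 3). Lhx2, Emx2, Emx1, Pax6 and Sox9 sit below all their controls with YAP overexpression, while the Sox2 points overlap their controls.

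Among the Sox members Sox9 fell, and Sox1, Sox2 and Sox3 were not called. Whether the changes of Sox1 and Sox3 differ from that of Sox9 was not tested. For Sox2 the only comparison was the subtraction described below, whose exact permutation p could not go under 0.1. Sox2 is the bright one of the 3 and read 11.49, 11.68 and 11.52 in YAP overexpression arrays, against 11.68, 11.49 and 11.69 in YAP control arrays. These ranges coincided almost fully, and the difference was -0.06 (SE 0.08, adjusted p = 0.825 in limma), with a 95% interval from -0.23 to 0.12. That interval did not reach the change measured for Lhx2, Emx2, Emx1, Pax6 or Sox9, which leaves out the error of those changes. The interval of the brightest Pax6 probe set, from -0.51 to -0.18, overlapped it.

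Sox1 and Sox3 were measured only by probe sets below the array median. Sox1 read 4.30, 4.16 and 4.77 in YAP overexpression arrays, against 4.32, 4.41 and 4.18 in YAP control arrays. The groups overlapped, and the difference of 0.11 had a 95% interval from -0.21 to 0.42. Sox3 read 4.63, 4.93 and 4.98 in YAP overexpression arrays and 4.77, 4.75 and 4.64 in YAP control arrays. It overlapped as well, with a difference of 0.13 and a 95% interval from -0.08 to 0.34.

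Sox9 fell on both of its probe sets above the array median. The brighter read 8.44, 9.05 and 8.92 in YAP overexpression arrays, against 9.26, 9.47 and 9.52 in YAP control arrays. The groups did not overlap, and overexpression replicate 1 stood lowest. The difference was -0.61 (SE 0.13, adjusted p = 0.0235 in limma). The second probe set read 7.86, 7.59 and 7.39 in YAP overexpression arrays, against 8.36, 8.22 and 8.29 in YAP control arrays, a difference of -0.68 (SE 0.12, adjusted p = 0.00696). Here overexpression replicate 1 was the highest of its group, so the probe sets agreed on the fall but not on the order of the overexpression arrays. The third, below the array median, differed by -0.24 (adjusted p = 0.284). The second was called in all 20 settings that kept it, and the first lost its call without control replicate 2 (adjusted p = 0.0736) or control replicate 3 (adjusted p = 0.105). With only the 6 YAP arrays the first was not called either (adjusted p = 0.116 in limma).

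Gli3, on its brighter probe set, read 11.07, 11.04 and 10.96 in YAP overexpression arrays, against 10.94, 10.75 and 10.86 in YAP control arrays. The overexpression arrays were all above the controls, by a small margin, and the probe set was not called (0.17, SE 0.08, adjusted p = 0.351 in limma). Its dimmer probe set differed by 0.14 (adjusted p = 0.553). The 95% interval of the brighter one, from -0.01 to 0.36, excludes a fall of the size seen for the homeobox genes.

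Hmga2 had higher means with YAP overexpression on all 4 probe sets, and none was called. The brightest read 12.73, 12.44 and 12.61 in YAP overexpression arrays, against 12.38, 12.39 and 12.17 in YAP control arrays, and did not overlap. Its difference was 0.28 (SE 0.14, adjusted p = 0.366 in limma). A second read 12.16, 11.89 and 12.14 in YAP overexpression arrays, against 11.79, 11.61 and 11.60 in YAP control arrays. It too was without overlap and had the widest difference of the 4, 0.40 (SE 0.15, unadjusted p = 0.0197 and adjusted p = 0.197 in limma). The other 2 differed by 0.27 and 0.23. These 4 probe sets report on 1 gene in the same arrays and are not independent.

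To set the members against a shared progenitor gene, the log2 value of Sox2 was subtracted from each member within the same array, a step chosen after the values were seen. Relative to Sox2, Lhx2 was lower with YAP overexpression by -0.63, Emx2 by -0.62, Sox9 by -0.56, Emx1 by -0.52 and Pax6 by -0.29. Gli3 was higher by 0.23. For these 6 genes the 3 overexpression arrays did not overlap the 3 controls, and the two-sided exact permutation p was 0.1 for each, the smallest that 3 arrays against 3 allow. Without the subtraction 18.2% of all probe sets did not overlap, and the share after it was not computed. Of the 6 genes, 5 had already been called lower on these same arrays, so the count adds no support. Hmga2 (0.34, exact p = 0.2), Sox1 (0.16, exact p = 0.7) and Sox3 (0.18, exact p = 0.3) overlapped. All these values are relative to Sox2 within an array. They do not show that a change differed from that of Sox2, nor that Sox2 was unchanged.

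**Figure D2:**
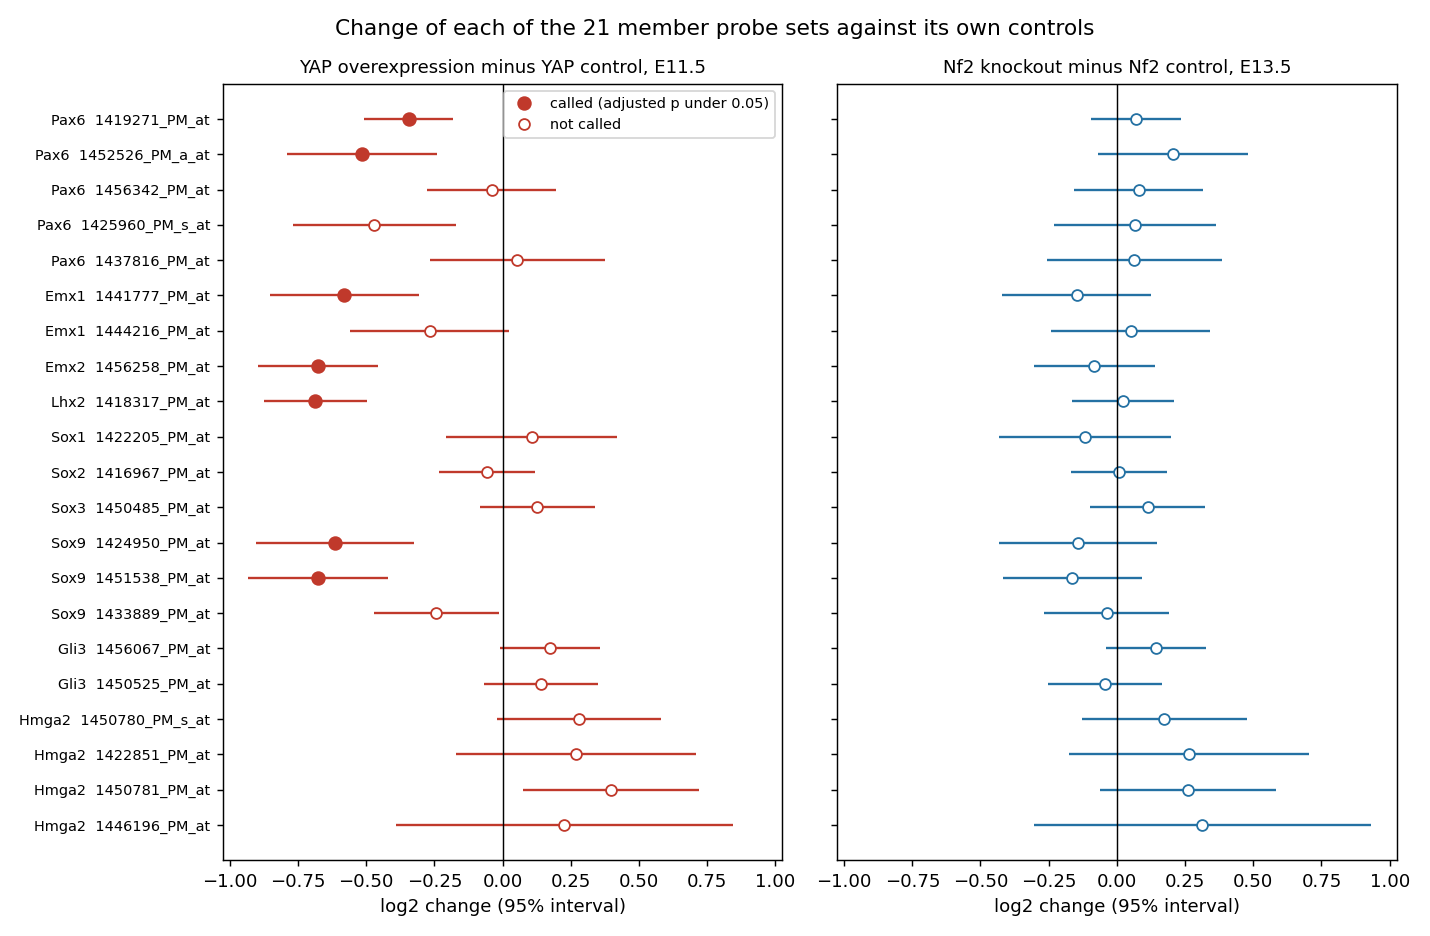
Log2 change of each of the 21 probe sets against the controls of its own experiment, with its 95% interval from limma, for YAP overexpression on the left and Nf2 knockout on the right. Filled points passed the adjusted p threshold. The 7 filled points are all on the left and below 0, between -0.69 and -0.34, and every point on the right is open.

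Nf2 knockout against Nf2 control addresses the removal of Merlin from dorsal telencephalon. No member passed the test. Limma called 0 of the 21 probe sets, and 0 had an unadjusted p under 0.05, which 5.25% of all probe sets reached. The SEs, intervals and p-values given for this experiment come from the fit that did not pair arrays by replicate number. With replicate number as a block 0 of the 21 were called as well, and unadjusted p-values of that fit are not given here. Differences ran from -0.16 to 0.31 with a median of 0.06, beside 0.00 over all probe sets. The groups did not overlap in 4 of the 21, and in 10.8% of all probe sets.

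Lhx2 read 11.81, 11.88 and 11.89 in Nf2 knockout arrays, against 11.92, 11.78 and 11.81 in Nf2 control arrays. The groups overlapped throughout, and the 95% interval of the difference of 0.02 ran from -0.16 to 0.21. Emx2 read 9.34, 9.53 and 9.43 in Nf2 knockout arrays and 9.67, 9.45 and 9.43 in Nf2 control arrays, with a difference of -0.08 and an interval from -0.30 to 0.14. For both genes the interval excluded a fall as large as the one measured with YAP overexpression, but this leaves out the error of that fall. The difference between the experiments was not called for either gene (adjusted p = 0.054 for Lhx2 and 0.198 for Emx2 in limma).

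Pax6, on the brightest probe set, read 9.67, 9.62 and 9.66 in Nf2 knockout arrays, against 9.61, 9.55 and 9.58 in Nf2 control arrays. The groups just failed to touch, by 0.07 on average (SE 0.08, adjusted p = 0.996 in limma), and the difference on the other 4 probe sets ran from 0.06 to 0.21. Emx1, well above the array median at this stage, read 7.11, 7.16 and 7.22 in Nf2 knockout arrays and 7.23, 7.24 and 7.46 in Nf2 control arrays. It was lower in every knockout array by a margin that limma did not call (-0.15, SE 0.13, adjusted p = 0.996), and its second probe set differed by 0.05.

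Sox2 read 10.49, 10.44 and 10.49 in Nf2 knockout arrays, against 10.48, 10.45 and 10.47 in Nf2 control arrays, a difference of 0.01 with an interval from -0.17 to 0.18. Sox9 read 8.83, 8.91 and 8.97 in Nf2 knockout arrays and 9.09, 8.98 and 9.07 in Nf2 control arrays. All 3 Sox9 probe sets had lower means in knockouts, by -0.14, -0.16 and -0.04, and none was called. Gli3 differed by 0.14 and -0.04, Sox1 by -0.12 and Sox3 by 0.11, again without a call.

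In the Nf2 experiment the higher Hmga2 means rested largely on 1 array. Nf2 knockout arrays read 8.36, 7.66 and 7.28 on one probe set, against 7.61, 7.60 and 7.30 in Nf2 control arrays, and knockout replicate 1 was the highest array on all 4 probe sets. The means were higher by 0.17, 0.26, 0.26 and 0.31, and none was called. Without knockout replicate 1 these differences became -0.005, -0.03, 0.07 and -0.06. Those fits kept control replicate 1, the array of the same number. On the dimmest probe set it was the highest control, at 4.67 against 3.98 and 3.74, so the value there depends on keeping it. The SD of the knockout arrays reached 0.65 on the dimmest probe set, where the control SD was 0.48.

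**Figure D3:**
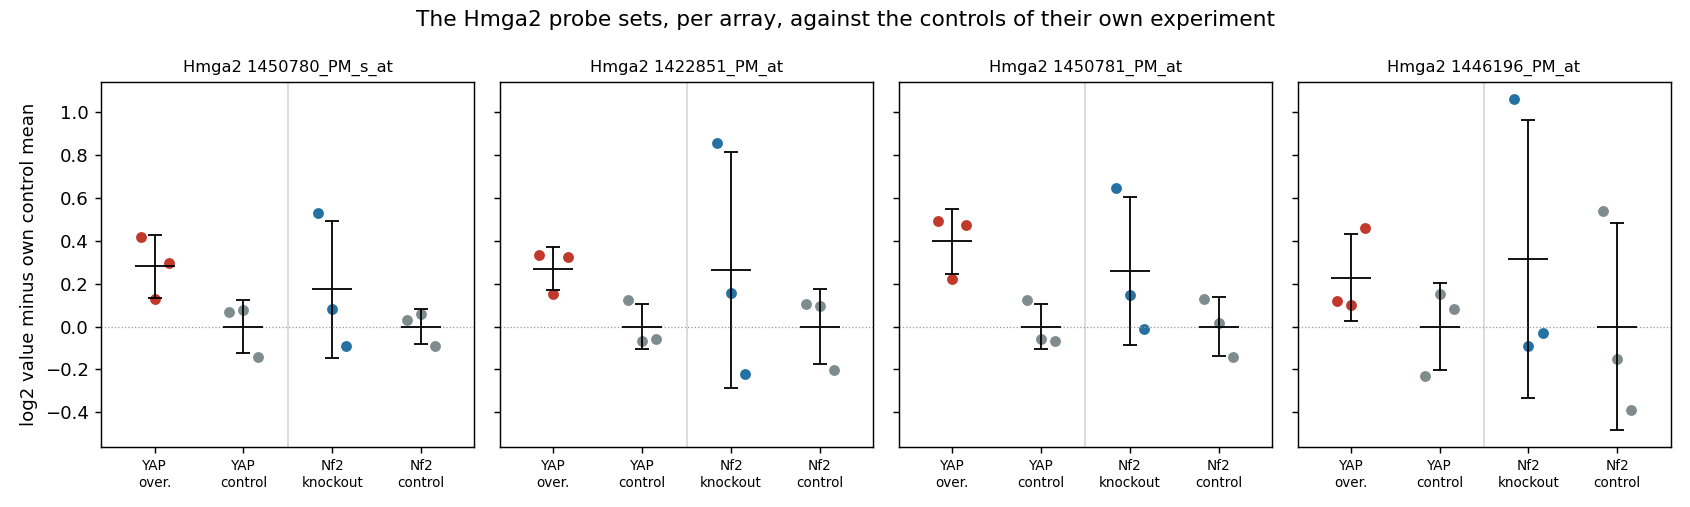
Log2 value of each array minus the mean of its own controls for the 4 Hmga2 probe sets, coloured as in the plot of the brightest probe sets, with mean and SD (n = 3). The YAP overexpression arrays have a higher mean on each probe set, between 0.23 and 0.40, and in the Nf2 knockout group 1 array lies far above the other 2.

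Whether a change differed between the experiments was tested as the YAP effect minus the Nf2 effect in the same fit. Stage, tissue and manipulation all differ between the experiments and cannot be told apart. No member passed, with 0 of 21 called while 0.12% of all probe sets were called. At an unadjusted p under 0.05 there were 8 of the 21, and 8.27% of all probe sets. Lhx2 came nearest, at -0.71 (SE 0.12, unadjusted p = 7.06e-05, adjusted p = 0.054 in limma). Next were Emx2 at -0.59 (SE 0.14, adjusted p = 0.198), the second Pax6 probe set at -0.72 (SE 0.18, adjusted p = 0.208) and the brightest at -0.41 (SE 0.11, adjusted p = 0.236). Lhx2 was called in 6 of the 20 settings tried for it, with adjusted p from 0.000617 to 0.19 over the 20. Those 6 included the fits without overexpression replicate 2 (0.0441) and without control replicate 2 (0.0284). With an intensity trend and robust prior Emx2 (0.0395) and the brightest Pax6 probe set (0.0425) were called as well.

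Related genes were counted from 6 lists, each gene by its brightest probe set. Over all 17097 genes, 2.06% were called higher and 2.92% lower with YAP overexpression, and 0.211% were called in the Nf2 comparison. At an unadjusted p under 0.05 there were 18.6% of all genes with YAP overexpression and 5.81% in the Nf2 comparison. Of 13 genes of dorsal telencephalic patterning, 1 rose, 1 fell and 11 were not called, with a median of -0.09. Dmrta1, a doublesex-related factor of the cortical gradient, read 5.51, 6.03 and 6.17 in YAP overexpression arrays, against 7.35, 7.12 and 7.0 in YAP control arrays. Those groups were far apart, and the difference was -1.25 (SE 0.18, adjusted p = 0.0023 in limma). Sp8, a zinc-finger factor of rostral cortex, rose by 0.47 (SE 0.12, adjusted p = 0.0422) and was called in only 3 of the 12 fits that left out 1 array, those without overexpression replicate 2 and without Nf2 control replicate 1 or 3 (adjusted p up to 0.155 in the rest). It was not called with only the 6 YAP arrays. Uncalled genes of the list included Dmrt3 (-0.39, adjusted p = 0.0897), which shares the medial domain of Emx2, and Otx2 (0.07, adjusted p = 0.802), a forebrain and midbrain factor.

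LIM homeobox genes and their partners, the wider family of Lhx2, gave 6 lower and 0 higher of 12 measured, with a median of -0.67 and 9 at an unadjusted p under 0.05. All 12 had a negative difference. Lhx9, the closest relative of Lhx2, read 7.85, 8.52 and 7.93 in YAP overexpression arrays, against 9.43, 9.27 and 9.68 in YAP control arrays, a fall of -1.36 (SE 0.16, adjusted p = 0.000669 in limma). The others that fell were Lhx8 (-1.84), Lhx1 (-1.75), Lhx6 (-0.99), Lmo1 (-0.91) and Lmo2 (-0.43). Lhx6 and Lhx8 are known from the ventral telencephalon, and Lmo1 and Lmo2 encode LIM-only proteins. The Lhx2 cofactor gene Ldb1 was not called (-0.23, adjusted p = 0.405). Without control replicate 3 only 2 of the 12 were called, with Lmo2, Lhx6, Lhx8 and Lhx1 losing their calls, and Lhx1 also lost its call without overexpression replicate 1 or 3 or control replicate 1 (adjusted p up to 0.0935).

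Among 13 other Sox genes, 3 fell, 0 rose and 10 were not called, with a median of -0.33 and 8 at an unadjusted p under 0.05. Those that fell were Sox4 (-0.47, SE 0.09) and Sox11 (-0.45, SE 0.09), which are SoxC genes of newly formed neurons, and Sox13 (-0.49, SE 0.11). Their adjusted p ran from 0.0147 to 0.0273, and 1 of the 3 was called without overexpression replicate 1 or 3 or without control replicate 1 or 3. None of the 3 was called with only the 6 YAP arrays or with the replicate block. Sox13 also lost its call under both other array scalings. Sox12, another SoxC gene, was not called (-0.15, adjusted p = 0.481 in limma). Sox21, which counters SoxB1 proteins, was not called (-0.05, adjusted p = 0.915).

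Of 12 Hedgehog signalling genes, the pathway in which Gli3 acts, 1 rose, 0 fell and 11 were not called, with a median of 0.13 and 1 at an unadjusted p under 0.05. The gene that rose was the ligand Shh, at 5.11, 6.06 and 6.28 in YAP overexpression arrays, against 4.46, 4.95 and 4.53 in YAP control arrays. Its control values were dim, all below the YAP array medians of 5.03 to 5.1. All overexpression arrays were above the controls (1.17, SE 0.23, adjusted p = 0.0148 in limma), and the call was lost without overexpression replicate 3, control replicate 1 or control replicate 3 (adjusted p up to 0.0707), and with only the 6 YAP arrays. The Hedgehog target Gli1 was not called (0.33, adjusted p = 0.337), nor was the receptor gene Ptch1 (0.22, adjusted p = 0.36).

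Of 6 genes linked to Hmga2 through Lin28 and let-7, 2 rose, 0 fell and 4 were not called, with a median of 0.22. Lin28a, whose protein blocks let-7 maturation, read 7.26, 6.73 and 8.13 in YAP overexpression arrays, against 5.83, 5.87 and 5.47 in YAP control arrays. Trim71, a stem cell regulator and let-7 target, read 7.48, 7.38 and 7.84 in YAP overexpression arrays, against 6.23, 5.86 and 5.55 in YAP control arrays. Neither gene's groups overlapped. Lin28a rose by 1.65 (SE 0.25, adjusted p = 0.00308 in limma) and Trim71 by 1.69 (SE 0.16, adjusted p = 9.72e-05), and both were called in all 21 settings. The RNA-binding protein genes Igf2bp1 (0.23, adjusted p = 0.225) and Igf2bp3 (0.22, adjusted p = 0.216) were not called.

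Of 6 genes that Pax6 promotes in cortical progenitors, 3 fell, 0 rose and 3 were not called, with a median of -0.53. Eomes (-1.22, SE 0.10) and Neurog2 (-0.88, SE 0.16), factors of neuron production, fell, as did the radial glial gene Fabp7 (-0.66, SE 0.17, adjusted p = 0.0466), whose call was lost in 11 of the 12 fits that left out 1 array, all but the one without overexpression replicate 2 (adjusted p up to 0.149). With only the 6 YAP arrays 1 of the 6 was called, as Neurog2 and Fabp7 lost their calls. Sfrp2, a secreted Wnt modulator, was not called (-0.02, adjusted p = 0.939), nor was Insm1 (-0.40, adjusted p = 0.386).

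In the Nf2 comparison limma called 0 genes of these 6 lists. At an unadjusted p under 0.05 there were 2 of 13 patterning genes, 4 of 13 other Sox genes, 0 of 12 Hedgehog genes, 0 of 6 in the Lin28 list, 1 of 6 Pax6-promoted genes and 3 of 12 LIM genes. Their medians lay between -0.16 and 0.04.

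Markers of other regions and cells were read beside these results, and their part in the falls was not tested. In a mixed tissue, fewer cells of a type and less RNA per cell cannot be told apart. With YAP overexpression 8 of 9 ventral telencephalic genes fell, 7 of 9 neuronal genes and 6 of 6 intermediate progenitor genes, and none of these rose. Several genes stand in more than 1 list, among them Eomes, Neurog2, Fabp7 and Lhx6. The mean log2 level over the list ran from 5.47 to 5.83 in YAP overexpression arrays and from 6.70 to 7.14 in YAP control arrays for the ventral list. For neurons it ran from 8.21 to 8.73 in YAP overexpression arrays and from 8.97 to 9.29 in YAP control arrays. Intermediate progenitor genes ran from 8.06 to 8.33 in YAP overexpression arrays and from 8.96 to 9.18 in YAP control arrays. Without control replicate 3 the ventral count was 4 of 9, and without overexpression replicate 1 or 3 or control replicate 1 or 3 the neuronal count was 4 of 9. With only the 6 YAP arrays 3 of 9 neuronal genes were called, 4 of 6 intermediate progenitor genes and 6 of 9 ventral genes. The radial glial list had 1 higher and 1 lower of 10. At an unadjusted p under 0.05 in limma there were 5 of the 10, beside 18.6% of all genes. Differences were positive for 6 genes and negative for 4, and opposite changes can cancel in a list mean. Its level ran from 10.2 to 10.4 in YAP overexpression arrays and from 10.2 to 10.4 in YAP control arrays. Hes1, a Notch effector, was the gene that rose there (0.60, SE 0.10), and neither it nor Fabp7 was called with only the 6 YAP arrays.

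The dissected tissue also held midbrain, and its markers were read for a shift of region. Of 12 midbrain and diencephalon genes 2 fell, Th (-0.72) and Gbx2 (-0.68), though 0 were called without control replicate 3 and 1 without overexpression replicate 1, without control replicate 1 or with only the 6 YAP arrays, with a list level from 6.43 to 6.60 in YAP overexpression arrays and from 6.63 to 6.77 in YAP control arrays. The midbrain gene En2 differed by -0.04 (adjusted p = 0.933). Eye markers, read because Pax6 and Lhx2 also serve the eye, were called in 0 of 6 cases by limma (2 at an unadjusted p under 0.05), at a level from 4.85 to 5.42 in YAP overexpression arrays and from 4.86 to 5.02 in YAP control arrays. In the cortical hem and choroid plexus list, whose territory Lhx2 restricts, Bmp6 (1.34, SE 0.15) and Folr1 (1.5, SE 0.14) rose, 0 of 10 fell, and the median was 0.10. Differences were positive for 7 of the 10 genes and negative for 3. Among the 3 was the hem gene Rspo1, lower without overlap but not called (-0.52, SE 0.13, adjusted p = 0.0508 in limma). That list ran from 6.56 to 6.62 in YAP overexpression arrays and from 6.30 to 6.48 in YAP control arrays. Neural crest and mesenchyme, where Sox9 is also expressed, had 0 of 9 called by limma and 3 at an unadjusted p under 0.05, with a level from 6.54 to 6.88 in YAP overexpression arrays and from 6.60 to 7.09 in YAP control arrays, and 2 were called lower without control replicate 3. Endothelial (6 genes), erythroid (5) and microglial (5) lists had 0 called by limma, and 0, 2 and 0 at an unadjusted p under 0.05.

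In the Nf2 experiment limma called 0 genes of all 11 marker lists, and 5.81% of all genes had an unadjusted p under 0.05. The midbrain and diencephalon list, from 3.52 to 3.65 in Nf2 knockout arrays and from 3.58 to 3.63 in Nf2 control arrays, lay below the median of every Nf2 array. The ventral list ran from 3.82 to 3.98 in Nf2 knockout arrays and from 3.89 to 4.52 in Nf2 control arrays. At an unadjusted p under 0.05 there were 5 of 10 hem and choroid plexus genes, 3 of 10 radial glial, 3 of 5 erythroid, 2 each of the ventral (of 9), mesenchymal (of 9), endothelial (of 6) and microglial (of 5) lists, and 0 of the neuronal, intermediate progenitor, midbrain and eye lists.

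**Figure D4:**
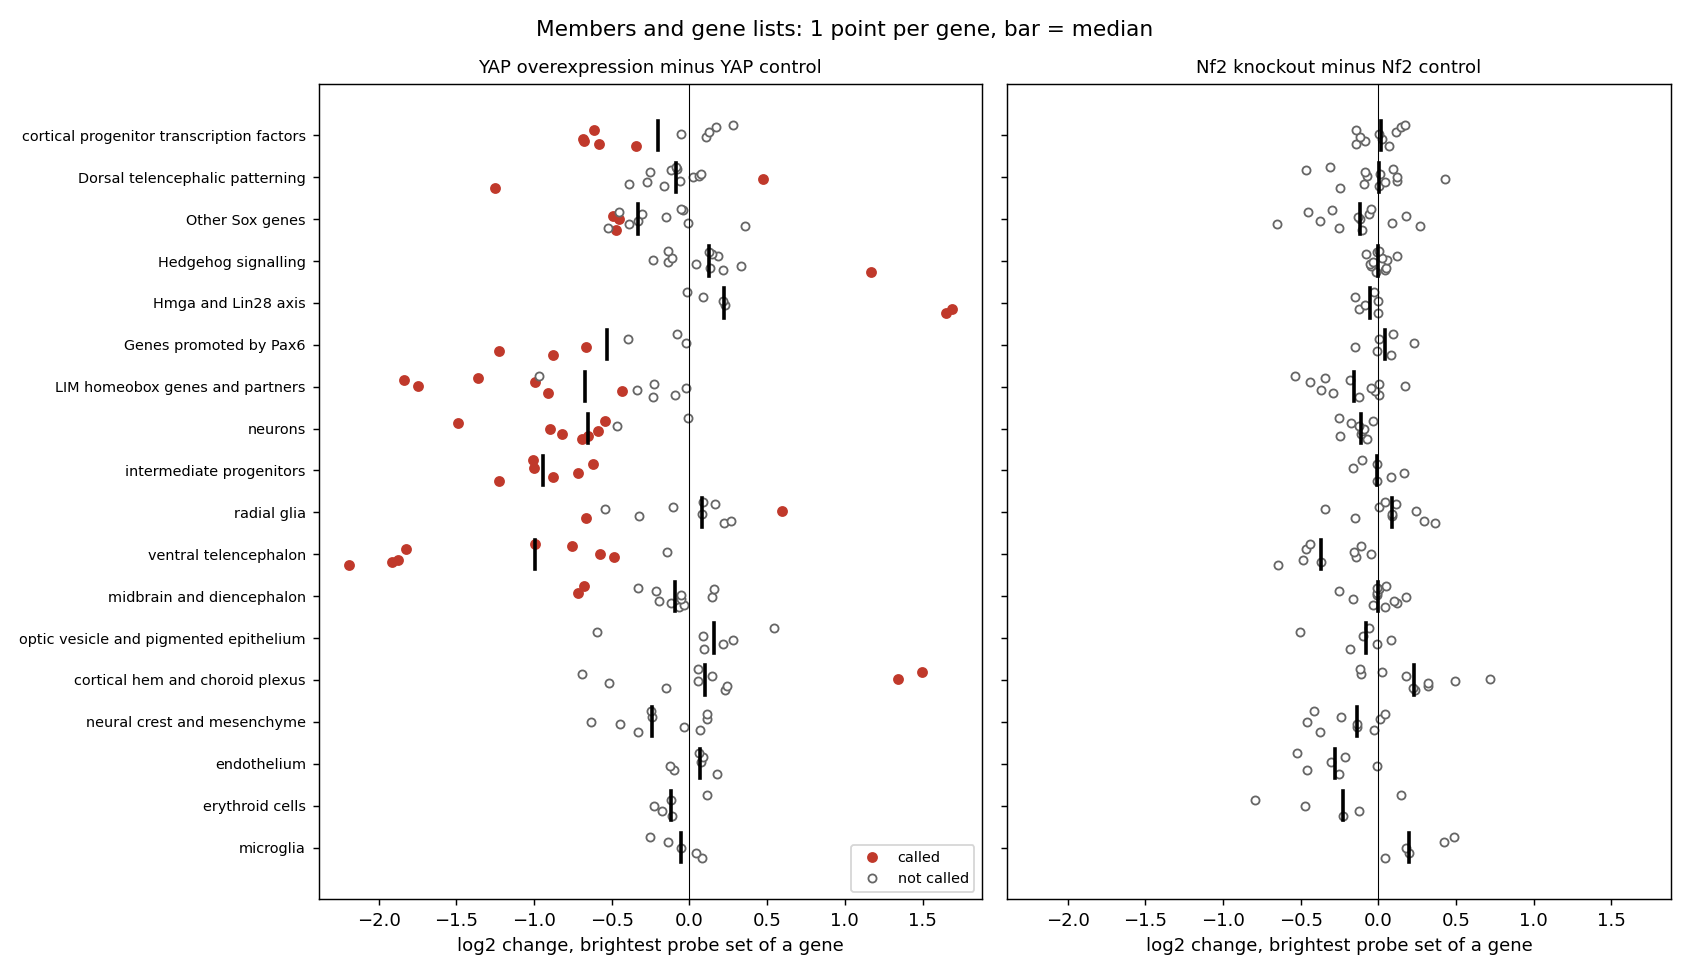
Log2 change of the brightest probe set of each gene, for the 10 members in the top row and the 17 related-gene and marker lists below, with YAP overexpression minus YAP control on the left and Nf2 knockout minus Nf2 control on the right. Red points were called, open points were not, and the bar is the median. On the left the members split into 5 called points below 0 and 5 open points around 0, and on the right no point is filled.

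Genes with the most similar pattern were found by the Pearson correlation over the 12 arrays, each value taken minus the mean of its own experiment's controls. These arrays share groups and experiments, so a high r mostly reflects the common group difference and carries no test. Lhx2 was nearest to Cdc42ep4 (r = 0.978), Eomes (r = 0.977) and the Notch ligand gene Dll3 (r = 0.973). Emx2 was nearest to Sun2 (r = 0.984), Wdr6 (r = 0.977) and again Dll3 (r = 0.973). Pax6 had Lhx2 itself as its nearest gene (r = 0.970), followed by the proneural gene Neurog1 (r = 0.968) and Pdcd4 (r = 0.961). Emx1 was nearest to Acap3 (r = 0.956), H2az2 (r = 0.948) and Dynlt3 (r = 0.940). Sox9 was nearest to Zcchc18 (r = 0.985), Dctn5 (r = 0.970) and Prkar2b (r = 0.965).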

How the data were processed

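RNA of embryonic mouse brain, extracted with Trizol, was measured on 12 arrays from 100 ng each with the 3' IVT Express kit, per the labels' protocols. The deposited values are log2 intensities per probe set that the authors had normalized. RMA, Affymetrix Expression Console 1.1 and Partek 6.5 are named in the submitters' processing notes, with no role given. The background correction and any filter are not given in the sources used here. The number of arrays limits the precision.

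Probe sets were named from the platform annotation of 2016, which tied 28898 of 45037 to a single gene. Symbols were updated through the Entrez ID for 28689. limma 3.58.1 (R 4.3.3) estimated a mean for each of 4 groups per probe set from all 12 arrays together (8 residual and 4.622 prior degrees of freedom). It gave both effects and their difference. P-values were two-sided and Benjamini-Hochberg adjusted over all probe sets, with a threshold of 0.05. The brightest probe set of a gene had the highest mean over 12 arrays. Members and lists were chosen with earlier results of these data known. The text names all members, the targeted genes, the called genes of each list with up to 2 uncalled ones, and the 3 most similar genes of each called member. The pipeline was tested on simulated data. Residuals of same-numbered arrays correlated with r from 0.205 to 0.296 in the Nf2 experiment, so numbers were taken to pair arrays there, and from -0.147 to 0.117 in the YAP experiment, where they were not. Among YAP arrays of unlike number, overexpression replicate 3 and control replicate 2 reached r = 0.26, which no fit modelled. No pair of arrays held identical values, and within groups r was at least 0.993. Alternatives were 9 other settings and 12 fits that left out 1 array each. Their use on the lists, and the subtraction of Sox2, were added after the data were seen.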

Additional observations from a re-analysis of the deposited data

How the results depend on the processing

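The count of member probe sets called with YAP overexpression was 7. It was 3 when only the 6 arrays of that experiment were fitted, those of Lhx2, Emx2 and the second Sox9 probe set. The count ran from 3 to 7 with 1 array left out. All these calls were lower. Lhx2 and Emx2 were called in every setting run. With the replicate block, which did not apply to the YAP arrays by their residuals, 6 member probe sets were called, the brightest Pax6 probe set was not (adjusted p = 0.0662), nor the second (adjusted p = 0.0693), and the Pax6 probe set that differed by -0.47 was (adjusted p = 0.0336). In the Nf2 experiment, where numbers paired the arrays, the block left 0 members called and 44 probe sets in all, against 60, and it changed no other call of a member. Over all probe sets the YAP count of 1704 became 648 with only the 6 arrays and 1078 with 1 probe set per gene, and ran from 784 to 2014 with 1 array left out. The Nf2 count of 60 ran from 21 to 60 with 1 array left out. The count for the difference of effects, 54, became 93 with dim probe sets left out, 84 with array weights, 201 with an intensity trend and robust prior and 25 with the replicate block, and ran from 29 to 208 with 1 array left out. No called member changed sign in any setting, and sign changes of uncalled values near 0 were not counted as reversals. The causes were not tested. In the YAP controls 7 of the 21 probe sets, and in the Nf2 controls 5, had a mean below the array medians, which limits what can be said of Sox1, Sox3 and the dim probe sets of the other genes.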
